A study of Mus musculus with 6 samples.

Results

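The genes described here code for the Sm and LSm proteins and the proteins named after the U small nuclear ribonucleoproteins (U snRNPs). They are the genes of the deposited table whose symbol starts with Snrp, with Snrnp, or with Lsm and a digit, and they number 32 of the 16095 genes measured. All 32 had a mean of at least 10 normalized counts over the 6 libraries and entered the tests. The libraries came from sorted kidney epithelial cells of mice. The Terf1FLOX group had 3 libraries from mice whose Trf1 alleles were flanked by loxP sites (Trf1lox/lox), and the control group had 3 libraries from Trf1+/+ mice. All animals of both groups also carried a Cre recombinase that tamoxifen switches on (CreERT2) under the Ksp-cadherin promoter and the KFP reporter (KFP+/t Cre+/t). Both groups received tamoxifen by intraperitoneal injection 3 times a week for 8 weeks, from an age of 6 to 8 weeks, in males and females. Trf1 is the protein of the gene Terf1, a part of the shelterin complex that protects telomeres. The promoter is that of Cdh16, a cadherin of kidney tubules, so the deletion is limited to cells that use it. Cells were sorted by an antibody to EpCAM and by the reporter, and polyadenylated RNA was sequenced after amplification with a low-input kit. How many mice went into each library is not given, so n counts libraries, and p-values measure only the spread between these libraries, which may be technical.

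Splicing is carried out by particles that each pair a short U-rich nuclear RNA with proteins. The Sm proteins B, D1, D2, D3, E, F and G close into a ring around the RNAs of U1, U2, U4 and U5. They reach the RNA as subcomplexes, B with D3, D1 with D2, and E with F and G, which the SMN complex assembles in the cytoplasm. The LSm proteins form rings of the same build: LSm2 to LSm8 hold the end of U6 RNA in the nucleus, while LSm1 with LSm2 to LSm7 binds messenger RNAs that are about to lose their cap in the cytoplasm. Each kind of particle then adds its own proteins, and the minor spliceosome, which removes a rare class of introns, has a further set.

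Reads recovered from the normalized counts, summed over the genes measured, were 13870931, 15375471 and 15263383 in the Terf1FLOX group. In the control group they were 16069674, 13582140 and 17680986. Values are normalized counts, which are reads scaled by library and not divided by gene length. Terf1 itself stood at 62, 24.63 and 25.3 normalized counts in Terf1FLOX libraries, against 529.6, 486.1 and 663.9 in control libraries (log2 fold change −3.99 ± 0.61, limma adjusted p = 0.0814; DESeq2 adjusted p = 5.42e-08). An exact permutation test of its values gave p = 0.1, two-sided, the smallest that 3 against 3 libraries can give. Epcam, the sorting marker, averaged 2081 ± 801.6 in Terf1FLOX and 4671 ± 363.2 in control libraries (SD, n = 3 each; log2 fold change −1.23 ± 0.29, limma adjusted p = 0.139), and Cdh16 4359 ± 365.1 in Terf1FLOX and 5641 ± 1354 in control libraries (log2 fold change −0.35 ± 0.22, limma adjusted p = 0.52). On log2 values, each Terf1FLOX library correlated on average at 0.736 to 0.744 with the others of its group and at 0.739 to 0.752 with the control libraries, and each control library at 0.789 to 0.805 with the others of its own. The summed level of 11 markers of the distal nephron and its epithelium ran from 192128 to 244772 in Terf1FLOX libraries and from 256105 to 300325 in control libraries. That of 9 proximal tubule markers ran from 5951 to 15145 in Terf1FLOX, with Terf1FLOX replicate 3 the highest, and from 3954 to 5851 in control libraries; Slc5a2 was not in the table. Of 8 endothelial and 5 podocyte markers, 0 were in the table. Of 9 macrophage markers 4 were in the table, summing to between 142.7 and 229.5 in Terf1FLOX and between 270.8 and 346.6 in control libraries. Of 7 lymphocyte markers 4 were in the table, summing to between 24.63 and 823.8 in Terf1FLOX, again highest in replicate 3, and between 191.6 and 222.6 in control libraries. Of 8 fibroblast and pericyte markers 1 was in the table, at no more than 15.23, and of 6 erythroid markers 4 were, summing to between 150.9 and 553.6 in Terf1FLOX and between 190.2 and 746 in control libraries. The 8 genes of cycling cells summed to between 615.7 and 1075 in Terf1FLOX and between 441.3 and 1312 in control libraries. The 10 genes that respond to tissue dissociation summed to between 938 and 1428 in Terf1FLOX and between 1354 and 1938 in control libraries. The part of these differences in the results below was not tested. In sorted bulk samples, fewer cells of a type and less RNA per cell cannot be told apart.

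The study's title is about telomeres and fibrosis of the kidney. Between Terf1FLOX and control cells the 32 genes lay in mixed directions. Most genes of the rings lay higher in Terf1FLOX libraries, with Lsm5, Lsm2 and Snrpg highest, while the Sm genes Snrpb and Snrpd3 lay lower. Log2 fold changes are Terf1FLOX over control, from limma on log2 of the normalized count plus 1, and ± is their standard error. Above 0 were 19 of the 32 genes (59.4%), and 47.2% of the 14822 genes tested. Their median log2 fold change was 0.26, and that of all genes tested was −0.077. With libraries scaled to equal totals the medians were 0.090 and −0.24, and with equal upper quartiles 0.38 and 0.037. The median of the 32 was 0.12 without control replicate 3 and 0.15 without Terf1FLOX replicate 1.

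At an adjusted p below 0.05 over the whole table, limma called 0 of the 32 genes and 0% of all genes, and edgeR likewise called 0 of both. limma also called 0 of the 32 with equal totals, with quantile normalization and among genes with a mean of at least 50, where it called 0.304%, 0.054% and 1.23% of all genes. At an unadjusted p below 0.05 in limma there were 7 of the 32 (21.9%), 5 higher and 2 lower, against 14.1% of all genes (5.7% higher and 8.43% lower); edgeR gave 9 (28.1%), against 13.4%. DESeq2 called 3 of the 32 (9.38%), against 5.81% of all genes. These were Lsm5 and Snrpg, which rose in that test as 2.47% of all genes did, and Snrpd3, which fell as 3.34% did. The values of the groups did not overlap for 11 of the 32 (34.4%), 8 higher and 3 lower, against 21.1% of all genes (10.3% higher and 10.8% lower). With equal totals these were 6 higher and 4 lower, and of all 14822 genes tested 1098 were higher and 2039 lower without overlap. Without Terf1FLOX replicate 2 they were 17, and then 31% of all genes did not overlap. Leaving out each of the other libraries gave 11 to 16 of the 32, and between 28.6% and 32.3% of all genes.

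**Figure D1:**
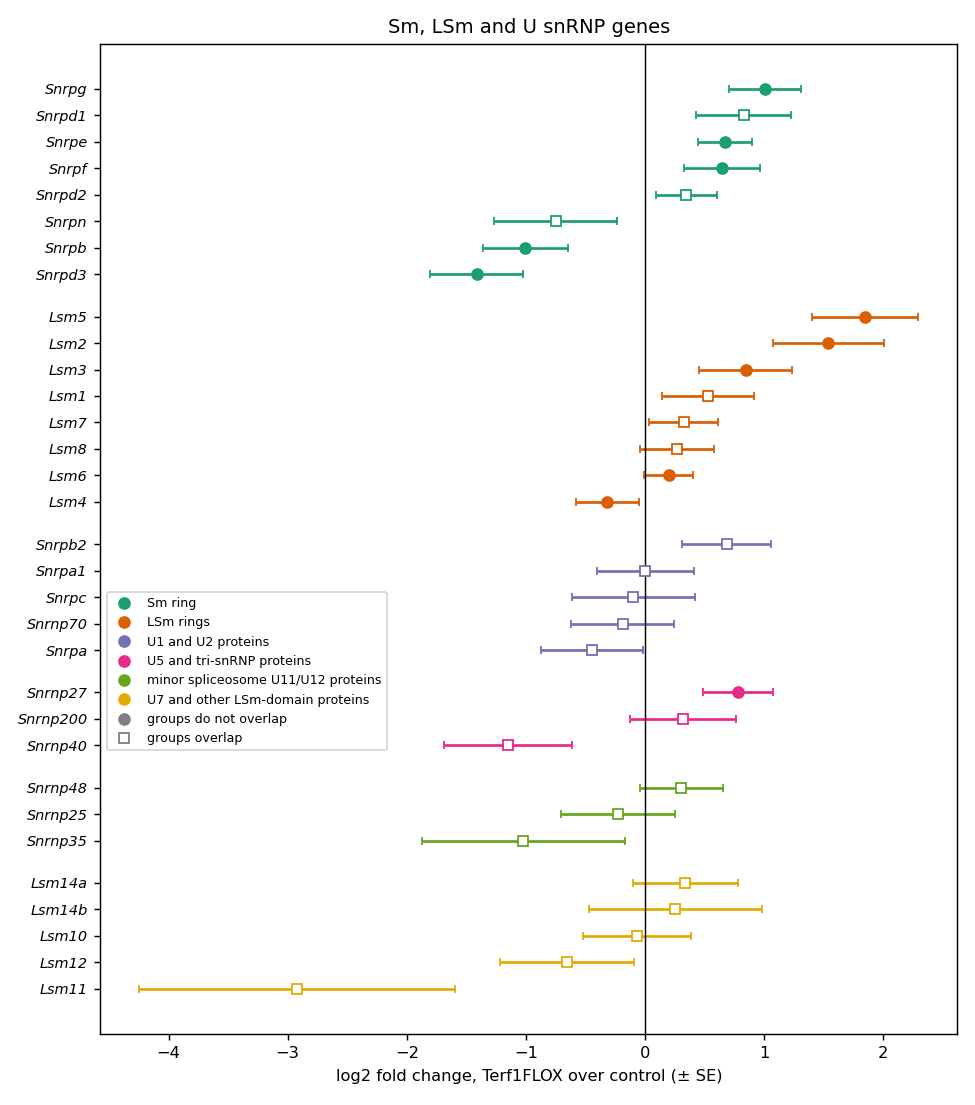
Log2 fold change of the 32 genes (x axis, Terf1FLOX over control, bars ± SE) by role, with filled circles where the groups do not overlap and open squares where they do. Snrpg at 1.01 and Snrpd3 at −1.41 mark the range within the Sm ring, and Lsm5 at 1.85 and Lsm4 at −0.32 that within the LSm rings.

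The stretches of promoter shown here belong to Snrpd3, Snrpg and Lsm5, the 3 members that DESeq2 called. Each is the 250 bases before the gene's start from RefSeq on build GRCm38.p6, read 5′ to 3′ on the strand of the gene. They lie at chr10:75517792-75518041, plus strand, for Snrpd3, at chr6:86371290-86371539, plus strand, for Snrpg, and at chr6:56704700-56704949, minus strand, for Lsm5. Capitals mark TGCGCA, the unit repeated in the site of the factor NRF1, in Snrpd3, and CCGGAAG, the core bound by ETS factors, or its reverse complement, in Snrpg and Lsm5. Matches to the other motifs named below are not marked. Of these, CCAAT or its reverse complement was in all 3 stretches, and GGGCGG or its reverse complement in those of Snrpd3 and Lsm5. The promoter of Snrpe, which DESeq2 did not call, was also searched for CCGGAAG, held none and is not shown.
Snrpd3: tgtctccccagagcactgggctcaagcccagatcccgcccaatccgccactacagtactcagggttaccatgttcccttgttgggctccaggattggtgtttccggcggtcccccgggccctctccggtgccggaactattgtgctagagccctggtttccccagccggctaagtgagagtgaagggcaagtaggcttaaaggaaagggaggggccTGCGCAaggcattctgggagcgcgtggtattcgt
Snrpg: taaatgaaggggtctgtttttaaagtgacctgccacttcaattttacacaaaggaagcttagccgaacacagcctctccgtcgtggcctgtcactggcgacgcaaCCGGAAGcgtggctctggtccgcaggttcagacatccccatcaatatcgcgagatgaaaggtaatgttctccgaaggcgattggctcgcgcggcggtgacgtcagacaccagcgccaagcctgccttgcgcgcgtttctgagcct
Lsm5: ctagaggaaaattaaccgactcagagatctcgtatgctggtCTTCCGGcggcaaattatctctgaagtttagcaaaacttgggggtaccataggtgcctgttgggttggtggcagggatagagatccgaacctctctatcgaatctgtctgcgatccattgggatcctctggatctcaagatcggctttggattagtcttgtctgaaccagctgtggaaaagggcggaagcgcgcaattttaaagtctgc
The TGCGCA of Snrpd3 begins 34 bases before its start, the CCGGAAG of Snrpg 145 and its reverse complement in Lsm5 209.

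Promoter sequences were at hand for 26 of the 32 genes, with the first listed start used for each, and 7 motifs were searched on both strands of the 250 bases before it. CCGGAAG was in 6 of the 26 (23.1%) and in 7.05% of the 27025 promoters of the reference set. That set takes the first listed promoter of each gene and was not limited to genes measured here. TGCGCA was in 8 of the 26 (30.8%) and in 6.66% of all promoters. The GC box GGGCGG was in 16 (61.5%) and in 32.9% of all promoters. CCAAT was in 9 (34.6%) and in 34.5% of all promoters, and the TATA box TATAAA in 2 (7.69%), Snrnp48 and Snrpa, and in 13% of all. The E box CACGTG was in 1 (3.85%), Snrpa, and in 6.05% of all, and the YY1 core AAGATGG in 0 of the 26 and in 4.53% of all. TGCGCA and CACGTG are their own reverse complements, and none of the 7 motifs contains another. The 6 with CCGGAAG were Lsm5, Snrnp200, Snrnp27, Snrpb2, Snrpc and Snrpg, with log2 fold changes of 1.85, 0.32, 0.78, 0.69, −0.10 and 1.01; Snrpc was above 0 with equal upper quartiles (0.023). The 8 with TGCGCA were Lsm11, Lsm14b, Lsm7, Lsm8, Snrnp70, Snrpb2, Snrpd2 and Snrpd3, with −2.92, 0.26, 0.32, 0.27, −0.19, 0.69, 0.35 and −1.41. A match of letters is no evidence that a factor binds there.

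Within the Sm ring, the genes of the B and D3 subcomplex were lower on average in Terf1FLOX libraries and those of the other subcomplexes higher, with overlap between groups for Snrpd1 and Snrpd2. The groups did not overlap for 3 higher and 2 lower of the 8 Sm genes, Snrpn included, and for 21.1% of all genes. After correction for GC content and length they did not overlap for 2 higher and 1 lower, and for 18.7% of all genes. Snrpd3, which codes for SmD3, had 278.5, 357.1 and 544.5 normalized counts in Terf1FLOX libraries, against 791.7, 1286 and 1012 in control libraries. Every Terf1FLOX library was below every control library (log2 fold change −1.41 ± 0.39, limma adjusted p = 0.188; DESeq2 adjusted p = 0.0264). Over the limma and edgeR alternatives its adjusted p ran from 0.12 to 0.415. Snrpb, which codes for SmB, had 1331, 600.4 and 1174 normalized counts in Terf1FLOX libraries, against 1887, 1678 and 2396 in control libraries. Terf1FLOX replicate 2 was the lowest of all libraries, and the groups did not overlap (log2 fold change −1.004 ± 0.36, limma adjusted p = 0.266; −0.34 after correction for GC content and length).

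Snrpg, for SmG, had 2933, 1869 and 2173 normalized counts in Terf1FLOX libraries, against 1166, 1437 and 869.9 in control libraries. All Terf1FLOX libraries were above all control libraries, and replicate 1 was the highest (log2 fold change 1.01 ± 0.30, limma adjusted p = 0.202; DESeq2 adjusted p = 0.0339). Over the limma and edgeR alternatives its adjusted p ran from 0.138 to 0.445. Snrpe, for SmE, had 3476, 2608 and 3229 normalized counts in Terf1FLOX libraries, against 1923, 2038 and 1850 in control libraries. The control libraries lay close together, below all Terf1FLOX libraries (log2 fold change 0.67 ± 0.22, limma adjusted p = 0.242; 0.095 after that correction). Snrpf, for SmF, the remaining partner in that subcomplex, had 815.8, 856.9 and 733.7 normalized counts in Terf1FLOX libraries, against 566.5, 545.2 and 432.6 in control libraries. These groups too did not overlap (log2 fold change 0.65 ± 0.32, limma adjusted p = 0.405).

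Snrpd1, for SmD1, had 1435, 760.5 and 1145 normalized counts in Terf1FLOX libraries, against 829.6, 671 and 397.8 in control libraries. Terf1FLOX replicate 2 lay below control replicate 1, so the groups overlapped (log2 fold change 0.83 ± 0.40, limma adjusted p = 0.393). Snrpd2, for SmD2, had 2234, 2275 and 1868 normalized counts in Terf1FLOX libraries, against 2002, 1357 and 1696 in control libraries, again with overlap (log2 fold change 0.35 ± 0.25, limma adjusted p = 0.583). Snrpn codes for SmN, a close relative of SmB that is made mainly in brain and heart and is expressed from the paternal copy. It had 152.3, 296.6 and 489.8 normalized counts in Terf1FLOX libraries, against 573.6, 353.6 and 520.2 in control libraries. The groups overlapped and Terf1FLOX replicate 1 was lowest (log2 fold change −0.75 ± 0.52, limma adjusted p = 0.557). The log2 ratio of Snrpn to Snrpb was −3.12, −1.01 and −1.26 in Terf1FLOX libraries and −1.72, −2.24 and −2.20 in control libraries, overlapping. The signs of the 8 genes held under every scaling tried.

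**Figure D2:**
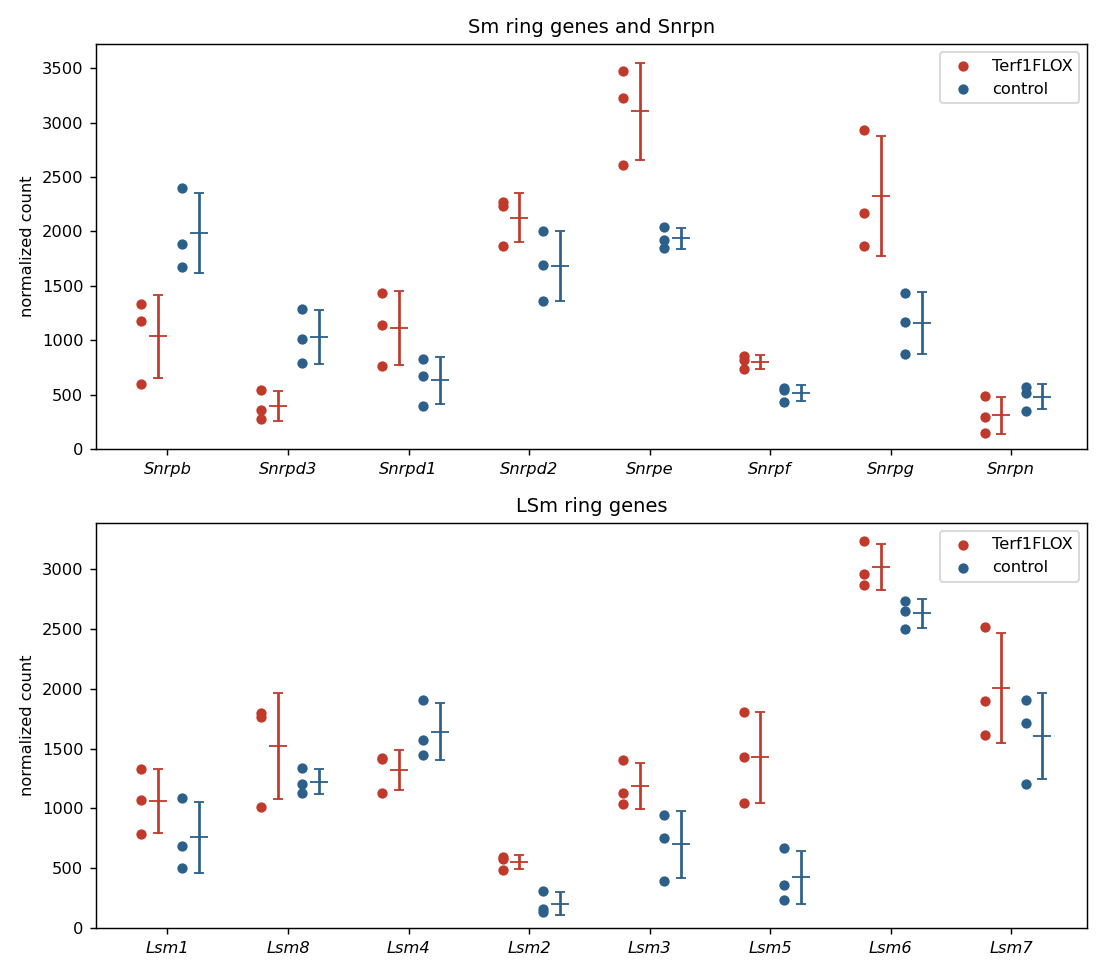
Normalized counts (y axis, from 0) of each library as points, with the mean and SD of the group as a bar (n = 3), for Snrpn and the Sm ring genes above and the LSm ring genes below. All 3 Terf1FLOX points of Snrpd3 lie below the control points, and all 3 of Snrpe lie above them.

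The makeup of the Sm ring transcripts was taken as a share of counts within each library, which does not depend on the scaling between libraries but was not corrected for GC content. The log2 fold changes of Snrpb and Snrpe, at 57.7% and 42.5% GC, were −0.34 and 0.095 after such a correction, and its part in the shares was not tested. It was computed over Snrpb, Snrpd1, Snrpd2, Snrpd3, Snrpe, Snrpf and Snrpg, and the counts are not per length. Snrpb and Snrpd3 together held 12.88, 10.27 and 15.81% of these counts in Terf1FLOX libraries, against 29.23, 32.89 and 39.38% in control libraries. Snrpe, Snrpf and Snrpg together held 57.78, 57.19 and 56.46% in Terf1FLOX libraries, against 39.88, 44.61 and 36.43% in control libraries. Neither pair of groups overlapped. Snrpd1 and Snrpd2 together held 29.9% ± 2.46 in Terf1FLOX and 25.9% ± 4.44 in control libraries (SD, n = 3 each), with overlap. Because shares sum to a whole, a larger share of some genes lowers that of the others. The summed counts of the ring were 828.7, 591.1 and 703.5 per 1000000 of the library total in Terf1FLOX libraries, against 648.4, 696.2 and 620 in control libraries. These sums overlapped. With the deposited scaling the sums of normalized counts were 12504, 9327 and 10867 in Terf1FLOX libraries, against 9166, 9013 and 8654 in control libraries, and did not overlap.

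**Figure D3:**
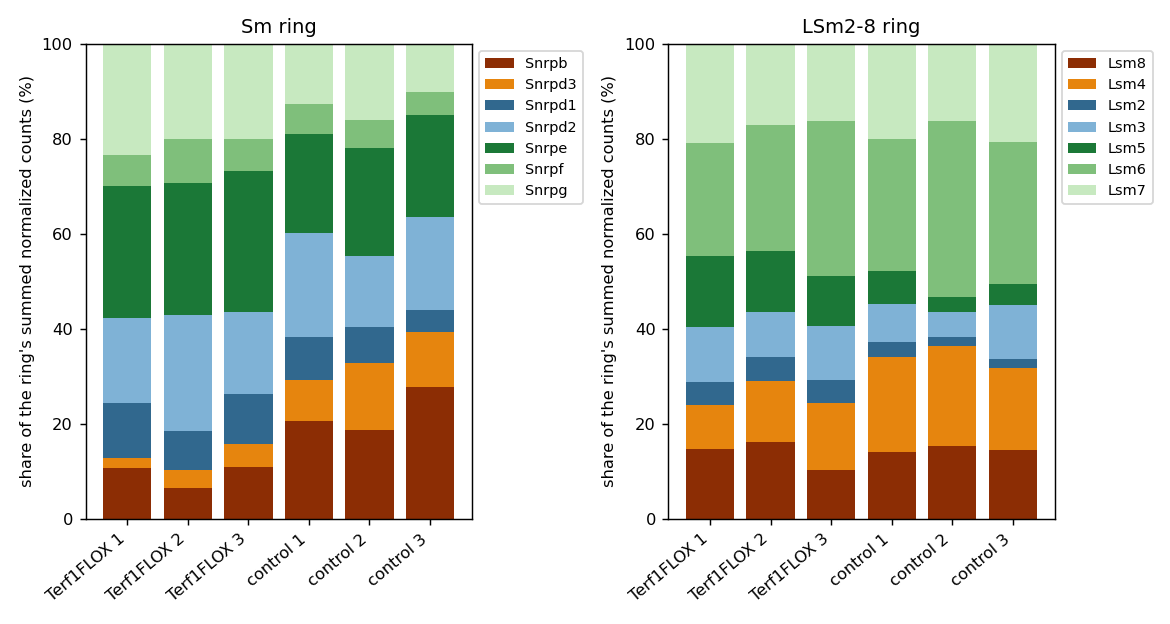
Share of each gene in the summed normalized counts of its ring (y axis, percent) for each library, for the Sm ring at left and the ring of Lsm2 to Lsm8 at right. Snrpb and Snrpd3, at the bottom of the left panel, make up 10.27% to 15.81% in Terf1FLOX libraries and 29.23% to 39.38% in control libraries.

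Among the LSm ring genes, 7 of 8 were above 0, with a median log2 fold change of 0.43. Lsm5 had 1808, 1431 and 1046 normalized counts in Terf1FLOX libraries, against 673, 237.3 and 357.6 in control libraries. All Terf1FLOX libraries were above all control libraries, by 3.61-fold on the fitted scale (log2 fold change 1.85 ± 0.45, limma adjusted p = 0.143; DESeq2 adjusted p = 0.00379). Lsm5 has the lowest GC content of the 32 genes, and after correction for GC content and length its log2 fold change was 0.97. Over the limma and edgeR alternatives its adjusted p ran from 0.0668 to 0.382. Lsm2 had 590.7, 578.8 and 483.7 normalized counts in Terf1FLOX libraries, against 310.5, 136.3 and 157.1 in control libraries. The Terf1FLOX libraries were close to each other and above all control libraries (log2 fold change 1.54 ± 0.46, limma adjusted p = 0.207; DESeq2 adjusted p = 0.0629). Its adjusted p over those alternatives ran from 0.16 to 0.444. Lsm3 had 1405, 1034 and 1132 normalized counts in Terf1FLOX libraries, against 756.5, 394.6 and 948.1 in control libraries. The groups did not overlap, and control replicate 2 was lowest (log2 fold change 0.85 ± 0.39, limma adjusted p = 0.372).

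Lsm6 had 2868, 2959 and 3235 normalized counts in Terf1FLOX libraries, against 2655, 2740 and 2500 in control libraries. The difference was small but without overlap (log2 fold change 0.20 ± 0.20, limma adjusted p = 0.71), and with equal totals its log2 fold change was 0.023. Lsm4 was the only gene of these 8 below 0, with 1128, 1420 and 1410 normalized counts in Terf1FLOX libraries, against 1906, 1574 and 1450 in control libraries. The lowest control library lay just above the highest Terf1FLOX library (log2 fold change −0.32 ± 0.26, limma adjusted p = 0.635; −0.013 after correction for GC content and length). Lsm7 had 2517, 1901 and 1617 normalized counts in Terf1FLOX libraries, against 1905, 1206 and 1715 in control libraries, with overlap (log2 fold change 0.32 ± 0.29). Lsm8 had 1762, 1800 and 1009 normalized counts in Terf1FLOX libraries, against 1339, 1130 and 1201 in control libraries, also with overlap (log2 fold change 0.27 ± 0.31), at −0.032 after that correction. Lsm1, the member that sets the cytoplasmic ring apart, had 1070, 1328 and 789.4 normalized counts in Terf1FLOX libraries, against 1086, 501.3 and 686 in control libraries, with overlap (log2 fold change 0.53 ± 0.38, limma adjusted p = 0.58). The log2 ratio of Lsm1 to Lsm8, whose proteins define the cytoplasmic and the nuclear ring, was −0.72, −0.44 and −0.35 in Terf1FLOX libraries and −0.30, −1.17 and −0.81 in control libraries, with overlap.

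In the ring of LSm2 to LSm8, Lsm5 held 12.8% ± 2.22 in Terf1FLOX and 4.85% ± 1.99 in control libraries (SD, n = 3 each) of the summed counts. Lsm2 held 4.99% ± 0.187 in Terf1FLOX and 2.33% ± 0.804 in control libraries, and Lsm4 held 12.1% ± 2.5 in Terf1FLOX and 19.5% ± 1.94 in control libraries. None of these 3 shares overlapped between groups, while those of the other 4 genes, Lsm3, Lsm6, Lsm7 and Lsm8, did. These shares also sum to a whole and were not corrected for GC content. Lsm5 and Lsm4 have the lowest and the highest GC content of the 32 genes, at 37.3% and 60.4%. After correction for GC content and length, the log2 fold changes were 0.97 for Lsm5, −0.013 for Lsm4 and 1.82 for Lsm2. The part of GC content in these shares was not tested. The summed counts of the ring were 800.6, 705 and 643.1 per 1000000 of the library total in Terf1FLOX libraries, against 675.2, 573 and 596.7 in control libraries, with overlap. With the deposited scaling the sums of normalized counts were 12080, 11124 and 9934 in Terf1FLOX libraries, against 9545, 7418 and 8329 in control libraries, and did not overlap.

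Each LSm protein has a counterpart at the same place of the Sm ring, and the log2 fold changes of counterparts can be set side by side. LSm4 corresponds to SmD3, and their genes Lsm4 and Snrpd3 were at −0.32 and −1.41. SmB corresponds to LSm8 in the nuclear ring and to LSm1 in the cytoplasmic ring, with Lsm8 at 0.27, Lsm1 at 0.53 and Snrpb at −1.004. LSm2 corresponds to SmD1, with Lsm2 at 1.54 and Snrpd1 at 0.83, and LSm3 to SmD2, with Lsm3 at 0.85 and Snrpd2 at 0.35. LSm5 corresponds to SmE, with Lsm5 at 1.85 and Snrpe at 0.67. LSm6 corresponds to SmF, with Lsm6 at 0.20 and Snrpf at 0.65, and LSm7 to SmG, with Lsm7 at 0.32 and Snrpg at 1.01. With LSm2 to LSm8 the sign was the same in 6 of these 7 places, the exception being that of SmB. Above 0 were 5 of the 8 Sm genes, Snrpn included, and 7 of the 8 LSm genes, Lsm1 included. Most places would therefore match in sign however the genes of the 2 rings were paired, and the count is no sign of a parallel. After correction for GC content and length Lsm8 was at −0.032, Lsm4 at −0.013 and Lsm1 at 1.14. This is a description of 7 places in the same 6 libraries, and it was not tested.

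Of the 5 genes for proteins particular to U1 and U2, 0 had an unadjusted limma p below 0.05, as 14.1% of all genes had, and 0 were without overlap, as 21.1% of all genes were. Snrpb2, for the B″ protein of U2, had 1460, 912.4 and 1246 normalized counts in Terf1FLOX libraries, against 514.6, 1109 and 696.2 in control libraries (log2 fold change 0.69 ± 0.37, limma adjusted p = 0.453). Snrpa, for the U1 A protein, had 406.8, 744.1 and 383.6 normalized counts in Terf1FLOX libraries, against 602.6, 496.6 and 974.1 in control libraries (log2 fold change −0.44 ± 0.43, limma adjusted p = 0.691); after correction for GC content and length its log2 fold change was 0.28. Snrnp70, for the U1 70K protein, had 423.1, 263.8 and 285.4 normalized counts in Terf1FLOX libraries, against 410.8, 425.1 and 270 in control libraries, where the spread within groups was wider than the difference (log2 fold change −0.19 ± 0.43, limma adjusted p = 0.879). Snrpc, for the U1 C protein, had 221.9, 481.3 and 700.3 normalized counts in Terf1FLOX libraries, against 531.3, 306.9 and 562.8 in control libraries, where Terf1FLOX libraries spread more widely than the difference (log2 fold change −0.10 ± 0.52, limma adjusted p = 0.953; 0.023 with equal upper quartiles). Snrpa1, for the U2 A′ protein, had 1425, 893.9 and 575.8 normalized counts in Terf1FLOX libraries, against 913.1, 1167 and 684.4 in control libraries (log2 fold change 0.0030 ± 0.41, limma adjusted p = 0.998; −0.17 with equal totals).

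The genes of the U5 particle and of the joined U4/U6 and U5 particles went different ways. Snrnp27, whose protein joins the tri-snRNP, had 3215, 3439 and 3967 normalized counts in Terf1FLOX libraries, against 2533, 1342 and 2528 in control libraries. The groups did not overlap, and control replicate 2 was the lowest library (log2 fold change 0.78 ± 0.29, limma adjusted p = 0.281). Snrnp40, a WD-repeat protein of U5, had 205.6, 394.1 and 216.6 normalized counts in Terf1FLOX libraries, against 293.8, 912.1 and 720.7 in control libraries. Control replicate 1 lay among the Terf1FLOX values, so the groups overlapped (log2 fold change −1.15 ± 0.54, limma adjusted p = 0.381). Snrnp200, for the helicase Brr2 that unwinds U4 from U6, had 373.1, 514.2 and 504 normalized counts in Terf1FLOX libraries, against 271.8, 609 and 298.4 in control libraries, with overlap (log2 fold change 0.32 ± 0.45, limma adjusted p = 0.791).

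The 3 genes of the minor spliceosome's U11 and U12 particles overlapped between groups. Snrnp35 had 57.65, 46.18 and 37.44 normalized counts in Terf1FLOX libraries, against 108.2, 38.13 and 206.8 in control libraries. Control replicate 2 was as low as the Terf1FLOX libraries (log2 fold change −1.02 ± 0.85, limma adjusted p = 0.638). Snrnp25 had 819.1, 483.4 and 463.5 normalized counts in Terf1FLOX libraries, against 1032, 354.6 and 799.6 in control libraries (log2 fold change −0.22 ± 0.48, limma adjusted p = 0.868), with a log2 fold change of 0.11 after correction for GC content and length. Snrnp48 had 1472, 1977 and 1365 normalized counts in Terf1FLOX libraries, against 1722, 1509 and 811.5 in control libraries (log2 fold change 0.30 ± 0.35, limma adjusted p = 0.741).

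The remaining 5 genes carry LSm domains outside these rings, and with the deposited scaling all 5 overlapped between groups. Lsm11 and Lsm10 code for the proteins that replace SmD2 and SmD1 in U7, the particle that trims histone messenger RNAs. Lsm11 was the least abundant of the 32 genes, with 4.351, 11.29 and 3.036 normalized counts in Terf1FLOX libraries, against 67.74, 9.531 and 158.7 in control libraries. In reads these were 4, 11 and 3 in Terf1FLOX libraries and 77, 10 and 201 in control libraries. Control replicate 2 lay within the Terf1FLOX range (log2 fold change −2.92 ± 1.32, limma adjusted p = 0.368), but with equal totals Lsm11 was lower in all Terf1FLOX libraries, and it was then the 1 gene of these 5 without overlap. Lsm10 had 531.9, 589.1 and 932.1 normalized counts in Terf1FLOX libraries, against 1028, 382.2 and 850.2 in control libraries, with overlap (log2 fold change −0.065 ± 0.46, limma adjusted p = 0.966; 0.056 with equal upper quartiles).

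Lsm14a and Lsm14b code for proteins that keep messenger RNAs from being translated in P-bodies. Lsm14a had 708.1, 407.4 and 524.2 normalized counts in Terf1FLOX libraries, against 329, 334.5 and 679.7 in control libraries (log2 fold change 0.34 ± 0.44, limma adjusted p = 0.777). Lsm14b had 176.2, 74.92 and 142.7 normalized counts in Terf1FLOX libraries, against 81.81, 215.4 and 62.36 in control libraries (log2 fold change 0.26 ± 0.72, limma adjusted p = 0.906). In both genes the control libraries covered a wider range than the difference between groups. Lsm12 had 131.6, 215.5 and 96.14 normalized counts in Terf1FLOX libraries, against 175.1, 309.8 and 198.1 in control libraries, likewise with overlap (log2 fold change −0.66 ± 0.56, limma adjusted p = 0.649).

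Levels of single genes were ranked per kilobase of transcript, using median transcript lengths from GENCODE release M21. The shares and ratios given above are of counts not divided by length. Snrpe was highest, at 6172 normalized counts per kilobase in Terf1FLOX and 3851 in control libraries on average. Lsm11 was lowest, at 0.965 in Terf1FLOX and 12.2 in control libraries. The median over the 32 genes was 869.3 in Terf1FLOX and 668.1 in control libraries. Spread between libraries, as SD over mean of the normalized counts, was smallest for Lsm6, at 6.33% in Terf1FLOX and 4.63% in control libraries. It was largest for Lsm11, at 71.2% in Terf1FLOX and 95.6% in control libraries, and its median over the 32 was 26.7% in Terf1FLOX and 33.3% in control libraries. Control replicate 2 was the lowest library for 9 of the 32 genes and Terf1FLOX replicate 1 the highest for 10. The median of the 32 genes' deviations from their means on the log2 scale was 0.28, 0.083 and 0.069 in Terf1FLOX libraries and 0.029, −0.24 and −0.12 in control libraries.

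Partners of these proteins in splicing and RNA processing were read from 8 lists with 78 genes, of which 77 were tested and Gemin4 was too low. Above 0 were 28 and below 0 were 49, with a median of −0.17, beside −0.077 for all genes tested; after correction for GC content and length 42 were above 0 and the median was 0.078, beside 0.077 for all genes. At an unadjusted limma p below 0.05 there were 5 higher (5.7% of all genes were) and 4 lower (8.43% of all genes), and 0 passed over the whole table in limma or edgeR. DESeq2 called 5 partners, against 5.81% of all genes. Sf3b6, for the SF3B subunit at the branch point, had 3781, 2731 and 3147 normalized counts in Terf1FLOX libraries, against 1932, 1545 and 1463 in control libraries, without overlap (log2 fold change 0.96 ± 0.24, limma adjusted p = 0.154; DESeq2 adjusted p = 0.0103). Of the 10 genes of SF3A and SF3B, 2 were above 0 and 8 below, and after correction for GC content and length 4 and 6. With the deposited scaling Sf3b3 was at −0.98 ± 0.39. Rnpc3, for the 65K protein of U11 and U12, had 1324, 1215 and 1023 normalized counts in Terf1FLOX libraries, against 740.7, 403.2 and 443.6 in control libraries, without overlap (log2 fold change 1.21 ± 0.35, limma adjusted p = 0.197; DESeq2 adjusted p = 0.0374).

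In the Prp19 complex, which activates the spliceosome, 4 of 11 genes were above 0 with the deposited scaling, 6 with equal upper quartiles and 8 after correction for GC content and length. Ctnnbl1 had 104.4, 17.45 and 48.58 normalized counts in Terf1FLOX libraries, against 424, 242.1 and 391.5 in control libraries, without overlap (log2 fold change −2.90 ± 0.76, limma adjusted p = 0.172; DESeq2 adjusted p = 0.0166). Cdc5l had 318.7, 285.3 and 295.5 normalized counts in Terf1FLOX libraries, against 826, 550 and 755.4 in control libraries, also without overlap (log2 fold change −1.22 ± 0.36, limma adjusted p = 0.202; DESeq2 adjusted p = 0.0474). Cpsf3, the nuclease that cuts messenger RNAs before polyadenylation and histone messenger RNAs with U7, averaged 303.7 ± 142.8 in Terf1FLOX and 940.9 ± 437.4 in control libraries (SD, n = 3 each; log2 fold change −1.63 ± 0.57, limma adjusted p = 0.261; DESeq2 adjusted p = 0.049). Among 8 genes of splice site recognition 5 were above 0, and U2af1, the small subunit that reads the 3′ splice site, was at 0.93 ± 0.34 and Luc7l3 at 0.62 ± 0.23. Among 14 genes that assemble and move snRNPs, 3 were above 0 with the deposited scaling, 7 with equal upper quartiles and 6 after correction for GC content and length. Clns1a, which holds Sm proteins before assembly, was at −0.76 ± 0.35, and the export adaptor Phax at −0.76 ± 0.44. Among the U5 and tri-snRNP partners 4 of 14 were above 0 with the deposited scaling and 6 after correction for GC content and length. With the deposited scaling Ppih was at 1.63 ± 0.72 and Snu13 at 0.58 ± 0.29. Of 9 decapping genes 3 were above 0, with the exonuclease Xrn1 at −0.88 ± 0.45 and Dcp1b at −1.15 ± 0.83. Of 5 minor spliceosome partners 4 were above 0, including Zcrb1 at 0.64 ± 0.28, and of 6 genes of histone mRNA processing 3 were, including Slbp at 0.34 ± 0.38. Another of those 4 was Pdcd7, at 1.494 ± 2.025, which had 0 reads in control replicate 3. Its log2 fold change was −0.63 in DESeq2 and −0.64 in edgeR. None of the partners named passed over the whole table in limma or edgeR. Over the limma and edgeR alternatives the adjusted p ran from 0.103 to 0.392 for Sf3b6, from 0.137 to 0.433 for Rnpc3, from 0.12 to 0.424 for Ctnnbl1, from 0.144 to 0.444 for Cdc5l and from 0.171 to 0.545 for Cpsf3.

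Fold changes moved with transcript GC content over all genes and, among the 32 genes, also with transcript length. Across the 14654 genes tested with transcript values, Pearson's r of the log2 fold change with GC content was −0.22 and Spearman's rho −0.25. Across the 32 genes they were −0.43 and −0.48; genes of the same 6 libraries are not independent replicates. With log2 transcript length, r was −0.015 and rho −0.00455 over all genes, and r was −0.53 and rho −0.39 over the 32. The median length of the 32 was 1138 bases, against 2018 bases for all genes. Lsm11, with 6453 bases, was at −2.92, and Snrnp200, the longest with 6745 bases, at 0.32. Cut into 5 equal bins of GC content, all 6 of the 32 in the lowest bin (25.6% to 44.0%) were above 0, where the median of all genes was 0.36. In the highest bin (55.4% to 72.8%) 0 of 5 were above 0, where the median of all genes was −0.49. Snrpe, with a GC content of 42.5%, was at 0.67 and Snrpb, with 57.7%, at −1.004.

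With the log2 values corrected for GC content and length, the log2 fold change was 0.095 for Snrpe, −0.34 for Snrpb, 0.29 for Snrpf, 0.43 for Snrpd1 and 0.97 for Lsm5. It was −1.07 for Snrpd3, 1.05 for Snrpg, 1.82 for Lsm2, 0.72 for Snrnp27, 0.87 for Snrpd2 and 1.14 for Lsm1. After the correction 22 of the 32 genes were above 0, against 53.1% of all genes, and the groups did not overlap for 9, against 18.7% of all genes.

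**Figure D4:**
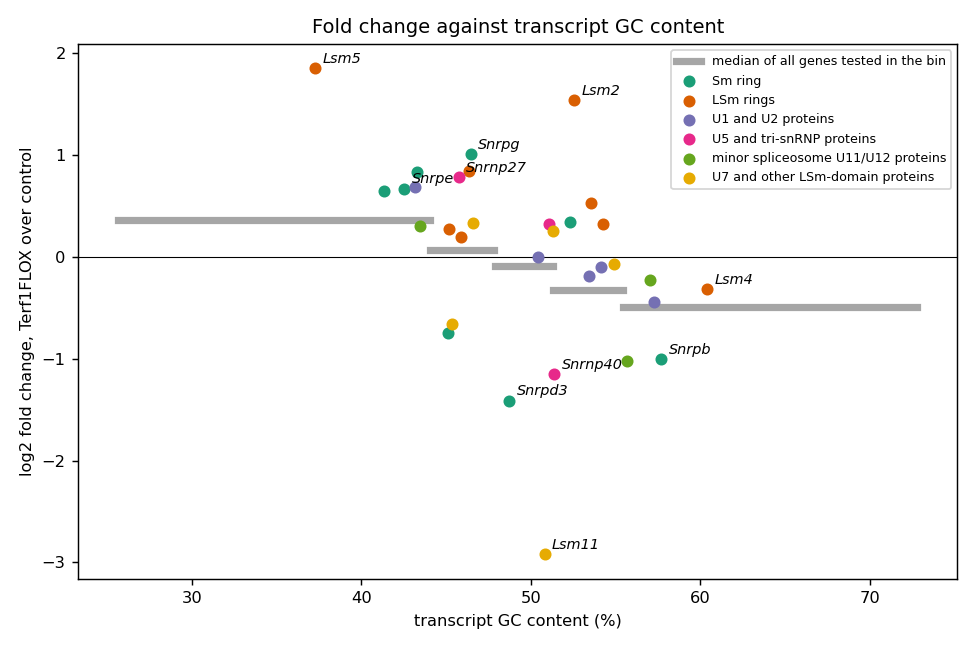
Log2 fold change (y axis, Terf1FLOX over control) against transcript GC content (x axis, percent) for the 32 genes, coloured by role, with grey bars for the median of all genes tested in 5 equal bins. Lsm5 has the lowest GC content (37.3%) and a log2 fold change of 1.85, and Lsm4 the highest GC content (60.4%) and −0.32.

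**Figure D5:**
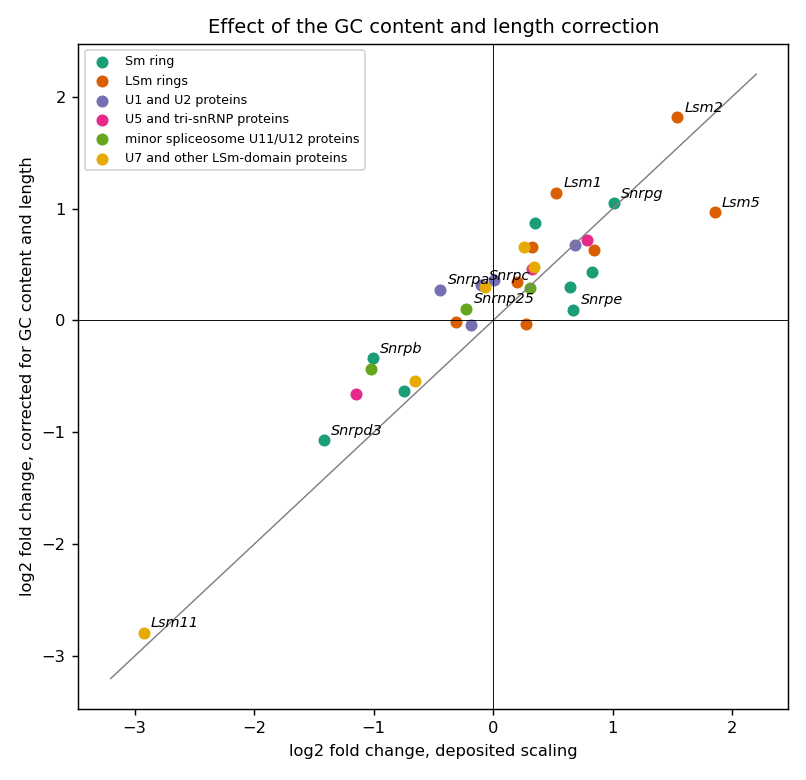
Log2 fold change of the 32 genes with the deposited scaling (x axis) and after correction for transcript GC content and length (y axis); the grey line marks equal values. Snrpg and Snrpd3 stay near the line, at 1.05 and −1.07 after correction, while Snrpe is at 0.095 and Snrpb at −0.34.

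Some reads may belong to other loci. Of the 32 genes, 13 have at least 1 other locus in GENCODE release M21 whose transcript matches at least 90% of the bases over at least 80% of their longest open reading frame, mostly pseudogenes. Snrpa and Snrpc have 7 each, Snrpf 3, and Snrpe, Snrpd2, Snrpb2, Lsm5 and Lsm7 2 each, so their counts are less certain; the sources used here do not give how reads with several matches were counted. Snrpd3, Snrpb, Snrpg, Lsm2, Lsm3 and Snrnp27 have 0. Exons overlap those of another annotated gene for 7 of the 32, and they do not give either whether reads were counted by strand. Snrpn shares its transcript with Snurf. Snrpd3 overlaps Gucd1 on the opposite strand, which had 201.2, 286.3 and 85.01 normalized counts in Terf1FLOX libraries, against 256.9, 565.2 and 253.4 in control libraries (log2 fold change −0.96 ± 0.62, limma adjusted p = 0.522); the part of Gucd1 reads in the values of Snrpd3 was not tested.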

How the data were processed

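RNA-seq of 3 Terf1FLOX and 3 control libraries was used. The authors deposited normalized counts, a signal of reads divided by 1 size factor per library; DESeq2 and build GRCm39 are named in the submitters' processing notes, and the sources used here give no aligner, counting tool, annotation or gene filter. Divided by the worth of 1 read in their library, all values (100%) came out whole (tolerance 0.01), so whole reads were recovered. Genes with a mean of at least 10 were tested (14822 of 16095) with limma 3.58.1 (eBayes, trend; R 4.3.3), two-sided, after adding 1 and taking log2, with Benjamini-Hochberg adjustment over all of them. Adding 1 shrinks the fold changes of low genes, but a single library near 0 can make them larger than in the count tests. Lsm11 was at −2.92 in limma and −3.63 in DESeq2. Sart1, with 1 read in Terf1FLOX replicate 2, was at −2.58 in limma and −0.84 in DESeq2.

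Alternatives were pseudocounts of 0.5 and 5, other filters and scalings, leaving out each library, a replicate block, the count tests of edgeR 4.0.16 and DESeq2 1.42.0 on the recovered reads, and a correction of each library's log2 values by splines (5 degrees of freedom) in transcript GC content and log2 length. These are medians over protein-coding transcripts of GENCODE release M21 on GRCm38 and can differ from the expressed transcript. Genes were matched by symbol or synonym (15878 of 16095). Copies were found with blastn 2.17.0, figures drawn with matplotlib 3.10.9, and the fits tested on simulated data. The simulated reads had the same spread setting for every gene and no GC effect. They check the code and do not measure how the fits perform on these libraries. Depth statements cover counting error only.

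The members and lists were chosen with earlier results of these data known. Genes named with values per library followed a rule. It took up to 4 members of each role group and 2 partners of each list with the smallest limma p. It also took members called by any tool, Terf1, Epcam and Cdh16. The other members, Gucd1, Pdcd7 and Sart1 were added after their values were seen.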

Additional observations from a re-analysis of the deposited data

How the results depend on the processing

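Over the whole table DESeq2 called 772 genes, and limma called 45 with equal totals, 8 with quantile normalization and 132 of those that average 50 or more; the count was 0 in every other setting, leaving out each library included. Of the 32 genes, DESeq2 called 3 and every other setting 0. DESeq2 gave 11 of the 32 an unadjusted p below 0.05, and leaving out single libraries 6 to 9. Groups did not overlap for 11 to 17 of the 32 when a library was left out, fewer values making separation easier by construction. Their median log2 fold change was 0.090 with equal totals and ran from 0.12 to 0.29 with a library left out. Terf1 was called among genes that average 50 or more (−3.99, limma adjusted p = 0.0285), with equal totals (−4.17, limma adjusted p = 0.0497) and with DESeq2 (−3.89, adjusted p = 5.42e-08), and ran from −4.42 to −3.77 with a library left out.

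Of the 51 genes tracked, 42 kept their sign in every setting, among them 24 of the 32. All sign changes were of genes that no tool called, and their cause was not tested. Lsm11 averages under 50 and has no value with that filter. Corrected for GC content and length, Snrnp25 was at 0.11, Snrpa at 0.28, Snrpc at 0.31, Lsm10 at 0.30 and Lsm8 at −0.032. With equal upper quartiles Snrpc was at 0.023 and Lsm10 at 0.056, with quantile normalization 0.032 and 0.046, and Snrpc was at 0.027 in edgeR and 0.022 in DESeq2. Snrpa1 was at −0.17 with equal totals. With libraries left out, Lsm14b ran from −0.10 to 0.78, Snrnp25 from −0.68 to 0.094, Snrnp48 from −0.026 to 0.52, Snrpc from −0.46 to 0.36, Slbp from −0.077 to 0.64, Lsm10 from −0.49 to 0.22 and Snrpa1 from −0.33 to 0.33.

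Replicate numbers are shared by both groups, but the deviations of same-numbered libraries correlated at −0.049, 0.00013 and −0.0069, so they were not taken as pairs. With the replicate block limma called 0 genes, 0 of the 32, and 8 of the 32 had an unadjusted p below 0.05.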
